A study of Arabidopsis thaliana with 20 samples.

Results

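The comparison described here set the 5-7 cm section of the Arabidopsis primary stem against the 3-5 cm section above it, on 8 of the 20 arrays of the study. Its members are the 4 arrays titled as the 5-7 cm section over the reference and the 4 titled as the 3-5 cm section over the same reference. For each probe the value is the difference of these 2 group means, from which the reference drops out. A negative difference means a lower level at 5-7 cm.

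The inflorescence stem of Arabidopsis grows from its tip, so tissue further from the tip is older. Young stem cells elongate while their thin primary walls yield to turgor. Expansins loosen the contacts between wall polymers, xyloglucan endotransglucosylase/hydrolases cut and rejoin xyloglucan chains, and pectin methylesterases change how pectin gels. Once cells stop elongating, xylem vessels and fibres lay down a thick secondary wall of cellulose and xylan, which is then lignified from monolignol alcohols. Growth was not measured in the files, so whether elongation ended between these sections was not tested.

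The study profiled the primary inflorescence stem of Arabidopsis thaliana ecotype Ler on spotted 2-colour arrays. Per the labels, plants stood 5 to a pot and had 8 weeks of short days (8 h light) before they were moved to long days (16 h light). Both sections came from stems of about 10 cm (9 to 11 cm) harvested on day 14 of long days, and distances are counted from the tip. The reference RNA on every array was the 0-2 cm section of stems about 5 cm long, harvested on day 12. Flowers, siliques, cauline leaves and side branches had been discarded. The labels name no mutation and no treatment, and the groups are labelled by position along the stem. Nothing in them tells whether the 4 replicates of a section came from different plants. All p-values therefore reflect array-to-array spread only, which may be technical.

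Each value is a log ratio of section over reference, taken as log2 because the log base is not stated. By the source names dyes were balanced in each section, with the stem RNA in Cy5 on 2 of its 4 arrays. Values were present for 25664 to 25724 spots on each of the 8 arrays. Correlations across probes were 0.743 to 0.869 among the 3-5 cm arrays, 0.572 to 0.799 among the 5-7 cm arrays and 0.474 to 0.744 between the sections. The median SD between arrays was 0.277 at 3-5 cm and 0.357 at 5-7 cm. The labels conflict for 2 of these 8 arrays. One label of 3-5 cm replicate 1 speaks of a 5 cm stem, but its title places it with the 10 cm stems, where it was kept. The dye of 5-7 cm replicate 4 differs between its labels, and that of the source name was used. The same holds for 7-9 cm replicates 2 and 4, which enter the fit. By the descriptions all 7-9 cm arrays had the stem RNA in Cy3. The values of 5-7 cm replicate 2 were deposited in steps of 0.1. The 3-5 cm arrays were the only ones scanned with photomultiplier settings of 62 (Cy3) and 61 (Cy5), so scanner setting and section cannot be told apart. Of the 5-7 cm arrays, replicates 1 and 2 were scanned at 62 and 60, and replicates 3 and 4 at 63 and 60. The 7-9 cm arrays were scanned at these same settings, in the same numbers. Values given below for the 62/60 or the 63/60 arrays alone take only those 5-7 cm arrays against all 3-5 cm arrays, so the setting still differs between the sections. Of 50 marker genes of stem and other cell types, 3 had a probe that could be tested, so the tissue could hardly be checked. They were the xylan synthesis gene GUT2, the Rubisco activase gene RCA and the phloem gene OPS, and their values follow below.

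Between 3-5 and 5-7 cm, 1517 of 25720 tested probes differed, which is 5.90% of them. A probe is called when its adjusted p from limma is below 0.05. At 5-7 cm 892 probes were lower (3.47%) and 625 were higher (2.43%). The median called fall was -1.06 and the median called rise 1.01 on the log2 scale. At least 2-fold differences were seen for 818 of the called probes (3.18%), of which 499 were lower (1.94%) and 319 higher (1.24%). The 4 and 4 arrays did not overlap for 1328 of the called probes, against 3343 of all tested probes (13.0%), 1771 of them lower (6.89%) and 1572 higher (6.11%). Among probes with 1 matched gene, 442 of 8138 were called (5.43%), 246 lower (3.02%) and 196 higher (2.41%). The other 1075 called probes, 6.11% of the probes without a matched gene, have no gene name here. With the 5-7 cm arrays of 1 scanner setting at a time, 606 probes were called at 62 and 60 and 1490 at 63 and 60, and 835 were called with a term for the Cy3 setting of 63, a fit that does not correct for the 62/61 setting of 3-5 cm. The count fell to 999 without 5-7 cm replicate 3, 985 without 5-7 cm replicate 4, 1001 without 3-5 cm replicate 3 and 980 without 3-5 cm replicate 4.

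The called probes had several kinds of course. Each section was also tested against the reference at the same threshold, which called 10323 probes at 3-5 cm (40.1%) and 10280 at 5-7 cm (40.0%). Of the 892 probes that fell, 297 did not differ from the reference at 3-5 cm and lay below it at 5-7 cm. Another 232 went from above the reference to no difference, and 164 stayed above it with a median of 2.15 at 3-5 cm and 0.931 at 5-7 cm. A further 125 were already below the reference and went lower, and 73 crossed from above to below. Of the 625 that rose, 213 went from no difference to above the reference and 206 from below it to no difference. In 82 the level stayed below the reference, in 93 it was above it in both sections, and 31 crossed from below to above. In both directions crossings were fewer than moves from, or to, no difference from the reference. The remaining probe that fell differed from the reference in neither section.

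The means of the 0-3 and 7-9 cm sections do not enter the difference tested, although their arrays helped to set the spread and the dye term of the fit. With the 8 arrays alone 1194 probes were called, 1012 of them among the 1517. For the probes that fell, the median log2 ratio was 0.141 at 0-3 cm, 0.453 at 3-5 cm, -0.527 at 5-7 cm and -0.516 at 7-9 cm. For those that rose it was -0.0685, -0.45, 0.521 and 0.408 in the same order. So the medians at the base of the stem lay near those at 5-7 cm, and the medians at the top lay between those at 3-5 and 5-7 cm. The 7-9 cm mean was below the 0-3 cm mean for 679 of the probes that fell (76.1%) and for 169 of those that rose (27%), against 49% of all tested probes. Over all 5 sections of the study, 64.5% of the called probes had their highest or lowest section mean, on the side of the step, at 3-5 cm, against 43% of all tested probes. The 3-5 cm arrays helped to choose the called probes, so nothing is read from this share.

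**Figure D1:**
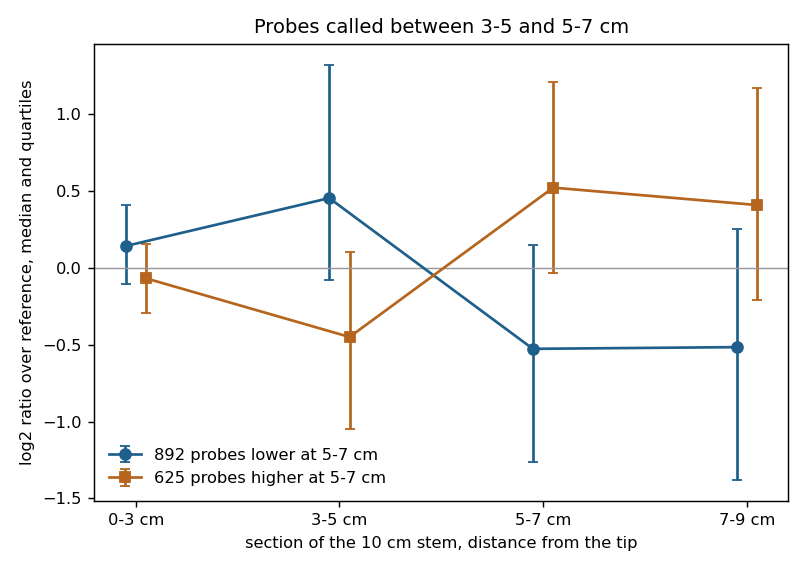
Median log2 ratio over the reference, with quartiles as bars, for the 892 probes lower and the 625 probes higher at 5-7 cm, in the 4 sections of the 10 cm stem. The probes were chosen on the 3-5 and 5-7 cm arrays, and the medians at 7-9 cm (-0.516 and 0.408) lie near those at 5-7 cm (-0.527 and 0.521).

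Genes of wall loosening gave the largest fall with a gene name. Differences below are log2 with their SE from the fit, each from 4 and 4 arrays. EXPA8 (AT2G40610), an alpha-expansin, read 2.16, 2.12, 1.88 and 2.19 on the 3-5 cm arrays and -2.68, -2, -1.41 and -1.19 on the 5-7 cm arrays. Every 3-5 cm array was above the reference and every 5-7 cm array below it. EXPA8 fell by 3.90 ± 0.32 on the log2 scale, 15.0-fold (adjusted p = 4.49e-07). Its difference was -4.43 with the 5-7 cm arrays scanned at 62 and 60 alone and -3.38 with those at 63 and 60 alone.

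EXPA15 (AT2G03090), another alpha-expansin, fell by 0.84 ± 0.24 (adjusted p = 0.039). Its 3-5 cm arrays read 0.14, -0.20, 0.14 and 0.15, and its 5-7 cm arrays -1.30, -1.10, 0.02 and -0.75. The groups overlapped through 5-7 cm replicate 3. That call ended when any array except 5-7 cm replicate 3 was left out (adjusted p 0.0546 to 0.117). EXPA15 differed by -1.26 with the 62/60 arrays alone (adjusted p = 0.00622) and by -0.424 with the 63/60 arrays alone (adjusted p = 0.382). Of 11 tested loci of expansins and expansin-like proteins, 2 were lower, 0 were higher and 9 were not called. This and the later list counts stand beside 5.45% called of all loci with a gene name, each locus counted by 1 probe. The list median was -0.205, beside 0.0214 for all tested probes. EXLA1, an expansin-like protein, differed by -0.54 ± 0.17 with arrays that did not overlap, but was not called (adjusted p = 0.0749). EXPA4, the highest member, differed by 0.42 ± 0.45.

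Xyloglucan genes included 3 called members, all lower. XTH33 (AT1G10550), a xyloglucan endotransglucosylase/hydrolase, read 2.25, 2.1, 2 and 1.95 at 3-5 cm and -0.29, 0.10, 0.52 and 0.24 at 5-7 cm. All 3-5 cm arrays lay well above all 5-7 cm arrays, which scattered around the level of the reference. XTH33 fell by 1.93 ± 0.24, 3.82-fold (adjusted p = 3.85e-05), and the difference was -2.17 with the 62/60 arrays alone and -1.69 with the 63/60 arrays alone.

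CSLC04 (AT3G28180), a glucan synthase that makes the xyloglucan backbone, read 0.02, -0.30, 0.31 and 0.37 at 3-5 cm and -0.91, -1.5, -0.86 and -1.26 at 5-7 cm. It fell by 1.24 ± 0.28 (adjusted p = 0.0101). ATCSLC08 (AT2G24630), of the same family, fell by 0.89 ± 0.20 (adjusted p = 0.00863), from between -0.86 and -0.69 to between -1.96 and -1.45. In both genes every 5-7 cm array lay below every 3-5 cm array. The call of CSLC04 ended with the 62/60 or the 63/60 arrays alone (adjusted p = 0.0579 and 0.0561) and after scaling (adjusted p = 0.059), as did that of ATCSLC08 with the 63/60 arrays alone (adjusted p = 0.0711). Of 8 tested xyloglucan loci 3 were lower, 0 higher and 5 not called, with a median of -0.547. CSLC6 (-0.61 ± 0.20, adjusted p = 0.077) and XTH32 (-0.49 ± 0.19, adjusted p = 0.139) were not called, and XTH21 and XTH16 had differences above 0 (0.44 and 0.10).

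The pectin gene ATPMEPCRD (AT2G43050), annotated as a pectin methylesterase, was high at 3-5 cm, with 3.48, 3.56, 4.01 and 3.86. Its 5-7 cm arrays read 2.84, 1.5, 1.28 and 1.82, all lower but still above the reference. The fall was 1.86 ± 0.31, 3.64-fold (adjusted p = 0.000807). The only other tested member of the list, PMEPCRF, differed by 0.14 (adjusted p = 0.82). Genes that carry a locus name only can be missing from the list, so it need not cover all tested pectin genes.

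The trichome birefringence-like family holds enzymes that add acetyl groups to wall polymers. TBL33 (AT2G40320), which acetylates xylan, read 3.64, 3.38, 3.36 and 3.44 at 3-5 cm. At 5-7 cm it read 2.50, 1.70, 0.39 and 1.68, a wide scatter in which every array was below the 3-5 cm arrays. It fell by 1.89 ± 0.36 (adjusted p = 0.00272). The difference was -1.35 at 62 and 60 alone, where the call ended (adjusted p = 0.0624), and -2.42 at 63 and 60 alone.

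TBL45 (AT2G30010) fell from between -0.86 and -0.57 to between -2.51 and -1.81, by 1.40 ± 0.20 (adjusted p = 0.000181). TRICHOME BIREFRINGENCE itself (AT5G06700), known for its part in the cellulose of trichomes, fell by 0.75 ± 0.22 (adjusted p = 0.0446). That last call ended without any 1 array other than 5-7 cm replicate 1 (adjusted p 0.0647 to 0.153). It also ended with the 62/60 arrays alone (-0.5, adjusted p = 0.398) but not with the 63/60 arrays alone (-1.01, adjusted p = 0.0265). Of 18 tested loci of the family 3 were lower, 0 higher and 15 not called, beside 5.45% called of all loci with a gene name. The family median was -0.00161. TBL32 (0.39 ± 0.29) and TBL34 (0.13 ± 0.42), relatives of TBL33, were not called.

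Of other wall genes, AT2G37585, annotated as GlcAT14C and known for adding glucuronic acid to arabinogalactan proteins, fell by 1.16 ± 0.26 (adjusted p = 0.0089). It was the only tested member of its list, and it was not called with the 62/60 arrays alone (adjusted p = 0.127), without the dye term or with the dyes of the descriptions. CSLB03 (AT2G32530), of the cellulose synthase-like B family, read 0.36, -0.65, 0.09 and 0.49 at 3-5 cm and 0.50, 2.30, 1.98 and 1.75 at 5-7 cm. Replicate 1 of 5-7 cm lay just above the highest 3-5 cm array and the other 3 far above it. CSLB03 rose by 1.56 ± 0.42 (adjusted p = 0.03). The call ended without 5-7 cm replicates 2, 3 or 4 or 3-5 cm replicates 1, 2 or 3 (adjusted p 0.0513 to 0.108). It also ended with the 62/60 arrays alone (1.32, adjusted p = 0.236) but not with the 63/60 arrays alone (1.79, adjusted p = 0.0283). COB and CSLA03, the other tested members of that list, were not called.

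None of 10 tested family 9 glycosyl hydrolases, which include endoglucanases of the wall, was called (median -0.126, range -0.566 to 0.76). The lowest p was that of GH9B9, the highest member (0.76 ± 0.37, adjusted p = 0.258). The xylan synthesis gene GUT2, also known as IRX10, differed by 0.07 (95% interval -0.62 to 0.75). Its arrays overlapped fully, and the interval does not exclude a change of over 1.5-fold either way.

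**Figure D2:**
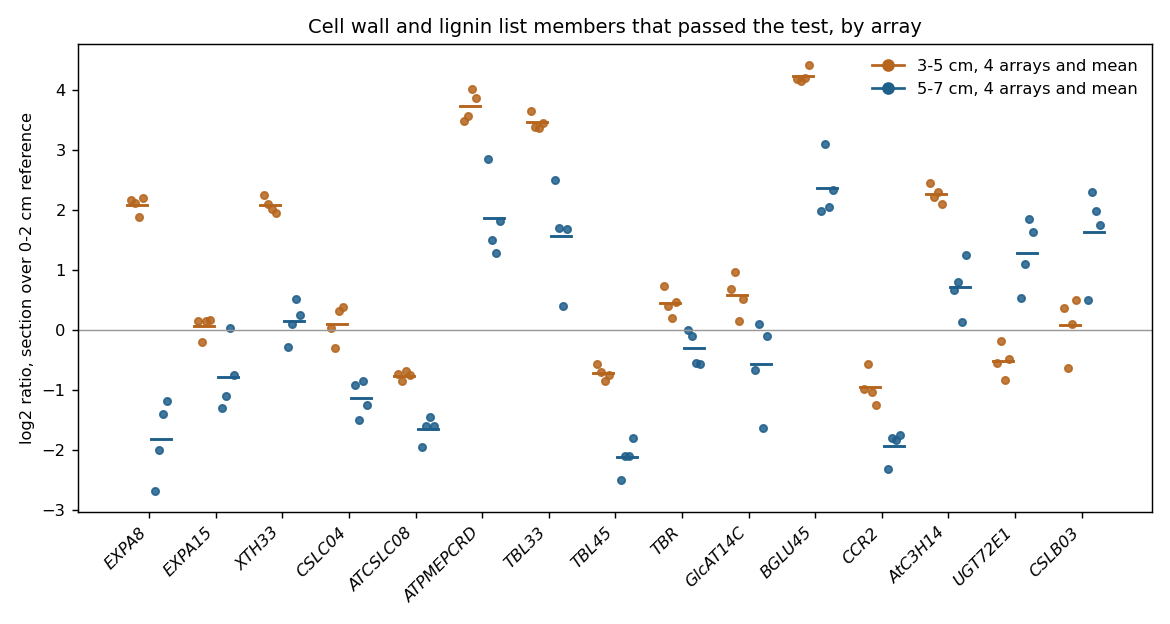
Log2 ratios over the reference on each of the 4 arrays at 3-5 cm and at 5-7 cm, with the mean as a line, for members of the wall and lignin lists that were called. EXPA8 goes from between 1.88 and 2.19 to between -2.68 and -1.19, whereas UGT72E1 and CSLB03 are the members plotted that rose.

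Of genes linked to monolignol glucosides, BGLU45 was called lower and UGT72E1 higher, and both calls ended with the 62/60 arrays alone. Monolignols can be stored as glucosides, which glucosyltransferases make and beta-glucosidases cleave. BGLU45 (AT1G61810), a beta-glucosidase that acts on such glucosides, read 4.17, 4.14, 4.19 and 4.4 at 3-5 cm. At 5-7 cm it read 1.97, 3.10, 2.04 and 2.33, so that no array reached the 3-5 cm level although all stayed above the reference. It fell by 1.87 ± 0.48 (adjusted p = 0.022). This call ended without 5-7 cm replicates 1, 3 or 4 or 3-5 cm replicates 3 or 4 (adjusted p 0.0503 to 0.0673), and with a term for the Cy3 setting (adjusted p = 0.148). It also ended with the 62/60 arrays alone (adjusted p = 0.178) and after scaling (adjusted p = 0.063).

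UGT72E1 (AT3G50740), a glucosyltransferase of monolignol aldehydes, read -0.55, -0.19, -0.84 and -0.49 at 3-5 cm and 0.52, 1.10, 1.84 and 1.63 at 5-7 cm. All arrays were below the reference at 3-5 cm and all were above it at 5-7 cm. It rose by 1.79 ± 0.34, 3.46-fold (adjusted p = 0.00252). The difference was 1.33 with the 62/60 arrays alone, where the call ended (adjusted p = 0.0801), and 2.25 with the 63/60 arrays alone.

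CCR2 (AT1G80820), a cinnamoyl-CoA reductase known best from defence responses, fell by 0.97 ± 0.25 (adjusted p = 0.0219). Its call ended without 5-7 cm replicates 1, 2 or 4 or 3-5 cm replicates 2 or 3 (adjusted p 0.0518 to 0.0697). It also ended with the 62/60 or the 63/60 arrays alone (adjusted p = 0.0702 and 0.129). Of 5 tested loci on the monolignol list, 2 were lower, 1 was higher and 2 were not called, with a median of -0.887. The 2 probes of BGLU46, a close relative of BGLU45, differed by -0.89 ± 0.48 and 0.41 ± 0.29, and neither was called.

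AT1G66810, annotated as AtC3H14, a zinc finger protein known as a regulator of secondary wall genes, read 2.44, 2.22, 2.29 and 2.1 at 3-5 cm. At 5-7 cm it read 0.65, 0.80, 0.12 and 1.24, without overlap. It fell by 1.56 ± 0.26 (adjusted p = 0.000669) and was the only tested gene on its list.

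Class III peroxidases can couple monolignols in the wall. None of 5 tested loci was called (median 0.0579). PRXCA (AT3G49110) read -3.39, -4.13, -3.97 and -3.38 at 3-5 cm and -2.72, -3, -0.55 and -2.22 at 5-7 cm. Its groups did not overlap and the difference of 1.59 ± 0.48 just missed the threshold (adjusted p = 0.0534). It passed without 5-7 cm replicate 1 or 2 (lowest adjusted p = 0.0306).

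The wider family of UDP-glucosyltransferases had 32 tested loci, of which 2 were higher and 1 lower (median 0.0387). Of all loci with a gene name 5.45% were called, so the count for this family is near the background. Besides UGT72E1, UGT71C2 (AT2G29740) rose by 0.89 ± 0.26 (adjusted p = 0.0466), with overlapping arrays. Its call ended without 5-7 cm replicates 1, 2 or 3 or 3-5 cm replicates 2, 3 or 4 (adjusted p 0.0565 to 0.153). It also ended with the 63/60 arrays alone (0.6, adjusted p = 0.302) but not with the 62/60 arrays alone (1.18, adjusted p = 0.035). UGT72B3 (AT1G01420) fell from between 0.82 and 1.31 to between 0.00 and 0.26, by 0.92 ± 0.17 (adjusted p = 0.00177).

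Of the genes of photosynthesis and tetrapyrrole synthesis, PORB and PIFI were called, both lower at 5-7 cm. PORB (AT4G27440), a protochlorophyllide oxidoreductase of chlorophyll synthesis, read 0.13, 0.01, -0.04 and 0.11 at 3-5 cm and -1.85, -1.80, -1.62 and -1.48 at 5-7 cm. The arrays of each section lay close together and far from those of the other. PORB fell by 1.74 ± 0.38 (adjusted p = 0.00735), a call that ended with the 63/60 arrays alone (adjusted p = 0.0558). PIFI (AT3G15840), a chloroplast protein that affects electron flow after illumination, fell by 0.83 ± 0.21 (adjusted p = 0.0205). Its call ended without 5-7 cm replicates 2 or 3 or 3-5 cm replicate 4 (adjusted p 0.0617 to 0.0875). It also ended with the 62/60 arrays alone (-0.711, adjusted p = 0.169) but not with the 63/60 arrays alone (-0.957, adjusted p = 0.0312).

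Of 18 tested loci on this list 2 were lower, 0 higher and 16 not called, beside 5.45% called of all loci with a gene name. The median was -0.392, and 15 of the 18 had a difference below 0. PSAN, a photosystem I subunit, differed by -0.98 ± 0.30 without overlap (adjusted p = 0.0534), and RCA, the Rubisco activase, by -0.87 ± 0.32 with overlap (adjusted p = 0.125). For 6 of these 18 loci, among them RCA, PSAN, PORB and the chlorophyll-binding proteins LHCB4.1 and LHB1B2, at least 1 array held a value that recurs exactly at 3 or more spots of the same block of 600 spots. Such recurring values cluster tightly on each array, around 0.333, 0.0103, 0.854 and 0.897 on 3-5 cm replicates 1 to 4 and 0.326, 0.646 and -0.31 on 5-7 cm replicates 1, 3 and 4. They occurred for 261 tested probes and 9 called ones, and 1508 called probes held none. A value shared by unrelated spots does not resolve the level of a single gene, so the median of this list is of limited use. Among the other lists they touched AVA-P2, COR47, AT1G54410, PRXR1 and AT3G23840, a gene on the cuticle list that differed by 0.14 ± 0.44 (adjusted p = 0.903). Why the values recur was not tested.

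The phloem regulator OCTOPUS (OPS, AT3G09070) gave conflicting probes. At probe 17476 its arrays read -1.78, -1.92, -1.95 and -1.70 at 3-5 cm and -3.53, -3.70, -3.93 and -4.37 at 5-7 cm, a fall of 2.04 ± 0.27 (adjusted p = 6.57e-05). At probe 21944 the difference was 0.68 ± 0.24, not called (adjusted p = 0.106), with overlapping arrays between -1.83 and -0.22. No direction can therefore be given for the gene. Of the other tested members of the list of phloem and vascular regulators, CLE26, a peptide of the CLE family, differed by -0.66 ± 0.20 (adjusted p = 0.0504), and none was called.

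Prenylated Rab acceptors are small membrane proteins of vesicle traffic. PRA1.B4 (AT2G38360) fell from between 1.10 and 1.59 to between -0.60 and 0.46, without overlap, by 1.25 ± 0.23 (adjusted p = 0.00155). PRA1.F1 (AT1G17700) fell by 1.20 ± 0.35 (adjusted p = 0.0475), with an overlap at 5-7 cm replicate 4. The call for PRA1.F1 ended without 5-7 cm replicates 1 or 2 or without any 1 of the 3-5 cm arrays (adjusted p 0.0739 to 0.169). PRA1.F1 differed by -1.94 with the 62/60 arrays alone (adjusted p = 0.00371) and by -0.465 with the 63/60 arrays alone (adjusted p = 0.51). Of 8 tested loci 2 were lower, 0 higher and 6 not called, with a median of -0.46. This list was added with its values known.

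Among the genes that rose, scpl18 (AT1G33540), a serine carboxypeptidase-like protein, read -0.65, -0.29, 0.26 and -0.42 at 3-5 cm and 1.19, 1.5, 1.71 and 1.12 at 5-7 cm. Every 5-7 cm array was above every 3-5 cm array. It rose by 1.65 ± 0.22, 3.15-fold (adjusted p = 6.57e-05), and the difference was 1.62 and 1.69 with the 62/60 and the 63/60 arrays alone. It was the only 1 of 18 tested members of the family to be called, and the family median was -0.0474. That count is near the 5.45% of all loci with a gene name that were called.

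FERONIA (FER, AT3G51550), a receptor kinase with malectin-like domains that senses peptides and the state of the wall, read 1.23, 1.26, 1.37 and 1.28 at 3-5 cm. At 5-7 cm it read 1.49, 2.50, 2.69 and 2.70, of which replicate 1 was close to the 3-5 cm arrays. FER rose by 1.06 ± 0.28 (adjusted p = 0.0275), and the call ended without any 1 array other than 5-7 cm replicate 1 (adjusted p 0.0567 to 0.0987). FER differed by 0.711 with the 62/60 arrays alone (adjusted p = 0.336) and by 1.41 with the 63/60 arrays alone (adjusted p = 0.00757). Its relatives THE1 (0.09 ± 0.26) and ANX1 (-0.14 ± 0.31) were not called.

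PSF2 (AT3G12530), a subunit of the GINS complex of DNA replication, read 0.15, -0.36, 0.27 and 0.26 at 3-5 cm and 1.56, 0.90, 1.41 and 1.35 at 5-7 cm. The groups stood clearly apart, and the rise was 1.22 ± 0.20 (adjusted p = 0.000607). It was the only called member of 10 tested loci of cell cycle, spindle and replication genes (median 0.147), beside 5.45% of all loci with a gene name. TOPII, DNA topoisomerase II, differed by 1.39 ± 0.43 with overlapping arrays (adjusted p = 0.0563). None of 6 histone loci was called (median 0.114), and HTR12, the histone H3 variant of centromeres, differed by 0.53 ± 0.28 (adjusted p = 0.295).

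The pentatricopeptide repeat proteins PPR596 (AT1G80270) and PPR336 (AT1G61870) act on RNA in mitochondria. PPR596 rose by 1.12 ± 0.29 (adjusted p = 0.0247) and PPR336 by 0.79 ± 0.22 (adjusted p = 0.0367), from below the reference in both cases and with arrays that did not overlap. The call for PPR596 ended without 5-7 cm replicates 3 or 4 or 3-5 cm replicates 3 or 4 (adjusted p 0.073 to 0.105). That for PPR336 ended without 5-7 cm replicates 2 or 3 or any 1 of the 3-5 cm arrays (adjusted p 0.0612 to 0.144). Both calls also ended with the 62/60 arrays alone, PPR596 at 0.596 (adjusted p = 0.363) and PPR336 at 0.706 (adjusted p = 0.176). With the 63/60 arrays alone both were called (adjusted p = 0.0033 and 0.0397). The third tested member differed by 0.16, and this list too was added with its values known.

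Of 16 tested genes of dehydrins, late embryogenesis proteins, cold and drought, 1 was higher and 0 lower (median 0.0734). That count is near the 5.45% of all loci with a gene name that were called. DREB2C (AT2G40340), a transcription factor of heat and drought responses, rose by 1.02 ± 0.30 (adjusted p = 0.0489), with overlapping arrays. Its call ended without any 1 array except 5-7 cm replicate 4 (adjusted p 0.05 to 0.156). DREB2C differed by 1.51 with the 62/60 arrays alone (adjusted p = 0.0193) and by 0.533 with the 63/60 arrays alone (adjusted p = 0.414). The cold genes COR47 (0.17 ± 0.24) and KIN2 (-0.12 ± 0.31) were not called.

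In the hormone lists no gene was called. Of 11 tested auxin response loci, 10 had a difference above 0 and the median was 0.328. Each locus is counted there by 1 probe, the one with most arrays or else the lowest number. The highest of these was IAA34 (0.65 ± 0.29, adjusted p = 0.206). GH3.17, an enzyme that conjugates auxin to amino acids, was counted by a probe at 0.03 ± 0.22, and its other probe differed by -0.74 ± 0.26 (adjusted p = 0.106) without overlap. The gibberellin receptor GID1A read between 0.70 and 1.16 at 3-5 cm and between 1.30 and 1.58 at 5-7 cm, without overlap, for a difference of 0.47 ± 0.22 (adjusted p = 0.239). BRL1, a brassinosteroid receptor, differed by 0.76 ± 0.32 (adjusted p = 0.175), ETP2 of ethylene signalling by 0.55 ± 0.21 (adjusted p = 0.141) and ARR15 of cytokinin signalling by 0.27 ± 0.19 (adjusted p = 0.471). None of these values shows that the hormone genes were unaltered, since the median SE over all tested probes was 0.245.

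No member was called either among 11 glutathione S-transferases (median -0.281), 6 tubulin and microtubule loci (-0.243), 6 sugar transport loci (-0.223), 4 subunits of vacuolar proton pumps (-0.338), 4 cysteine proteases and vacuolar processing enzymes (0.229) or 3 chaperonin and heat shock loci (0.102). The members with the lowest p in these lists were GSTU26 (-0.80 ± 0.27, adjusted p = 0.0829), TUBG1 (-0.36 ± 0.32), SWEET17 (-0.70 ± 0.27, adjusted p = 0.147), VHA-A1 (-0.67 ± 0.23, adjusted p = 0.1), BETA-VPE (0.51 ± 0.21, adjusted p = 0.163, 7 arrays) and Cpn60beta2 (0.40 ± 0.42). The arrays of GSTU26, SWEET17 and VHA-A1 did not overlap. Against the 5.45% of all loci with a gene name that were called, 0 called among so few loci is no result about these lists. Family members that carry a locus name only can be missing from them, so the counts do not speak for whole families. Loci with a locus name only make up most of the largest changes given below.

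**Figure D3:**
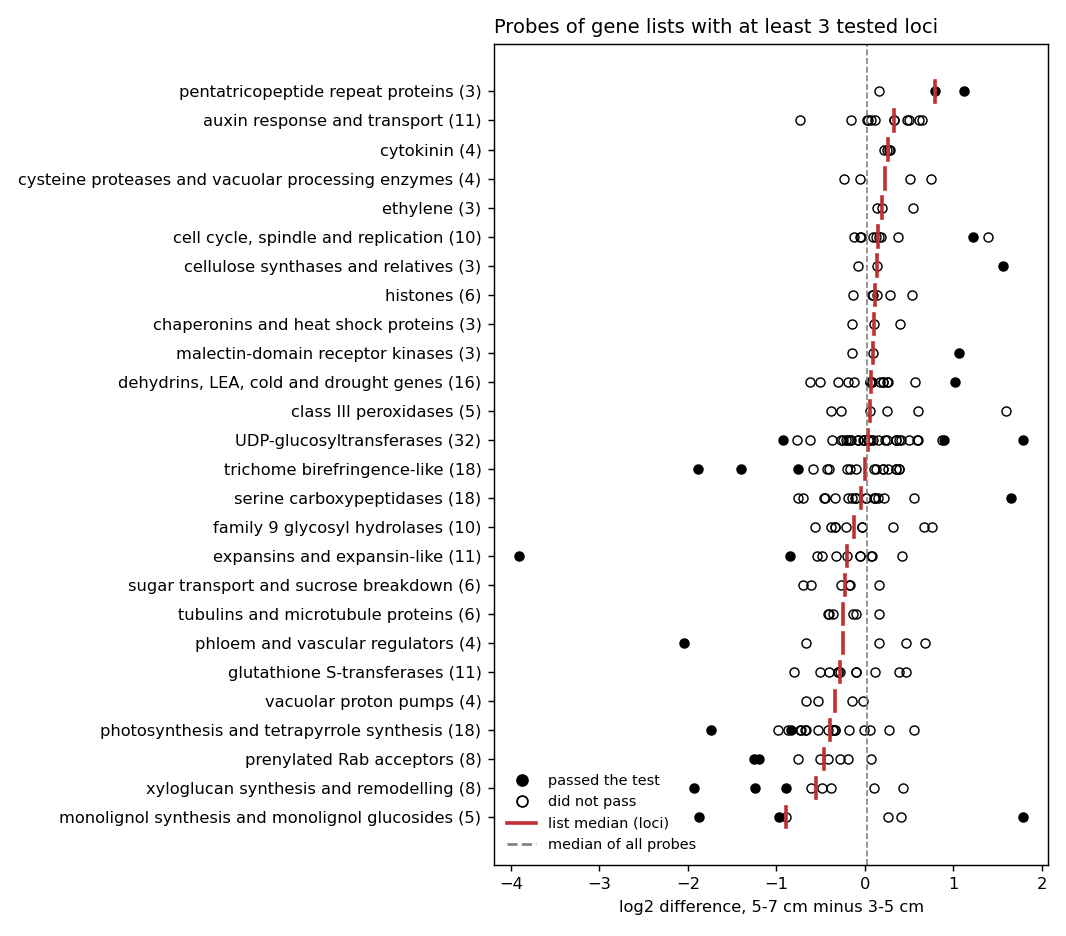
Log2 difference, 5-7 cm minus 3-5 cm, of each probe of the gene lists with at least 3 tested loci (number in brackets). Filled points were called, red bars are list medians over loci, and the dashed line is the median of all tested probes (0.0214). The called wall and prenylated Rab acceptor members lie mostly to the left, and the lowest point is EXPA8 at -3.90.

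The 15 largest falls among annotated probes ranged from 4.11-fold to 15.0-fold, and the 15 largest rises from 3.15-fold to 6.72-fold. In each direction 13 of the 15 loci carry a locus name only, and no role is given for them. None of these was placed on a gene list, so they may include members of the families counted above. AT3G16370 fell from -0.38, 0.08, -0.50 and -0.36 to -3.77, -4.10, -2.61 and -3.38, by 3.18 ± 0.34 (adjusted p = 8.79e-06). Its level near that of the tip at 3-5 cm was thus lost at 5-7 cm. AT1G06120 went from between 1.02 and 1.69 to between -2 and -0.61, by -2.83 ± 0.29 (adjusted p = 5.73e-06). AT2G03200 was high in both sections, with 3.94, 4.24, 5.11 and 4.85 at 3-5 cm and 3.33, 2.50, 0.84 and 2.19 at 5-7 cm, and fell by 2.32 ± 0.43. Of these 15, 9 had a mean above the reference at 3-5 cm and 13 a mean below it at 5-7 cm.

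AT4G34670 had the largest rise among annotated probes, from -1.91, -1.64, -1.53 and -1.14 to 0.70, 1.20, 1.67 and 1.21, by 2.75 ± 0.44 (adjusted p = 0.000521). AT1G64880 rose by 2.58 ± 0.42, from between -1.33 and 0.07 to between 0.55 and 3. AT3G03960 was above the reference throughout, with 2.93, 2.85, 3.12 and 3.42 at 3-5 cm and 5.36, 5.50, 5.12 and 4.74 at 5-7 cm, a rise of 2.1 ± 0.22 (adjusted p = 5.90e-06). All 15 had a mean above the reference at 5-7 cm, and 10 had one below it at 3-5 cm. Larger differences occurred at probes with no gene name here, where the largest fall was -4.63 and the largest rise 3.27.

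**Figure D4:**
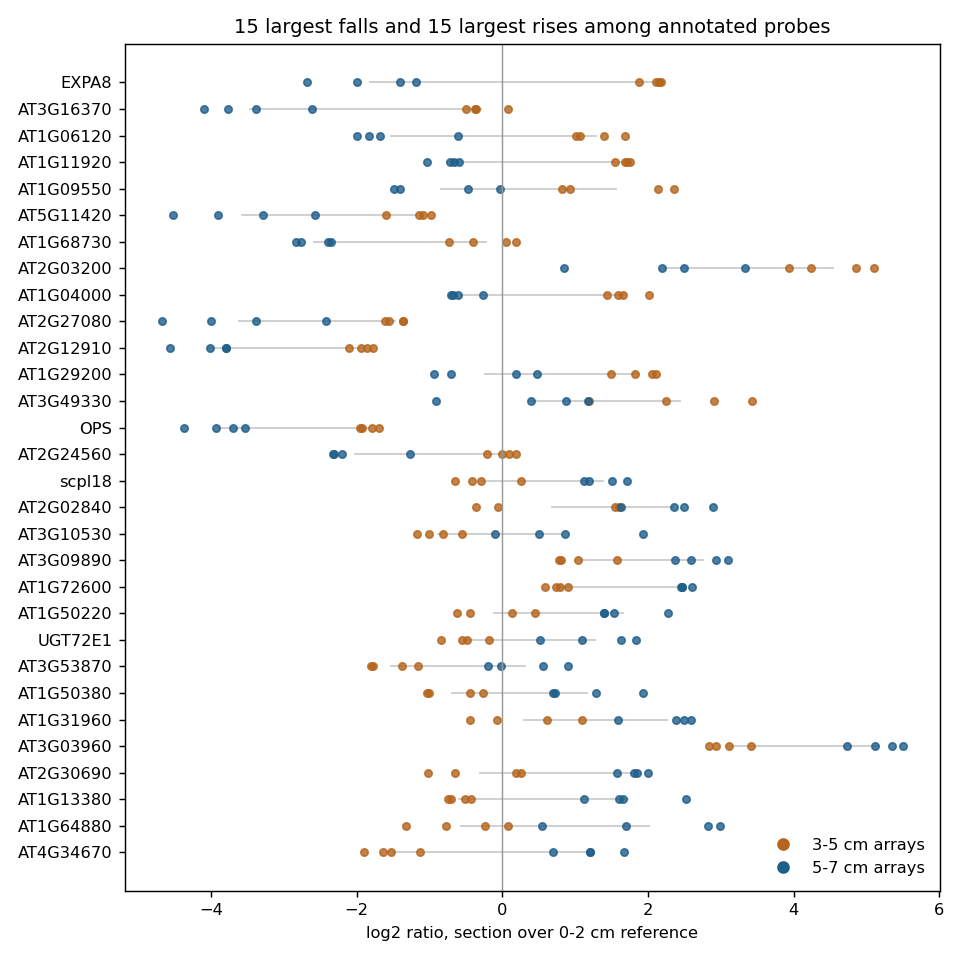
Log2 ratios over the reference on each 3-5 cm and 5-7 cm array for the 15 largest falls and 15 largest rises among probes with 1 annotated gene. The rule required that the arrays not overlap, which AT3G49330 met narrowly, with 1.20 at 3-5 cm against 1.18 at 5-7 cm.

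A further 31 called genes with a symbol, or with a gene name among their synonyms, were on no list and were named after their values were seen. For 8 of them no single array left out ended the call, but for 4 of these an alternative for the scanner setting or scaling did. Lower at 5-7 cm were DRT100, annotated for tolerance of DNA damage (-1.99 ± 0.23, adjusted p = 1.65e-05), PTI1-4, a protein kinase (-1.27 ± 0.21), GLC (-0.95 ± 0.21) and AFR, an F-box protein of far-red light signalling (-0.95 ± 0.17). Higher were NUP1, a nuclear pore protein (1.05 ± 0.18, adjusted p = 0.00124), AT2G40620, annotated as the transcription factor bZIP18 (1.04 ± 0.25), TAC1, a zinc finger protein annotated as a telomerase activator (1.03 ± 0.22), and MED32, a Mediator subunit (1.02 ± 0.23). DRT100 read 0.00, -0.25, -0.54 and -0.70 at 3-5 cm and -2.64, -2.80, -1.95 and -2.05 at 5-7 cm, so that its groups were far apart. With the 63/60 arrays alone the calls of GLC, MED32 and AT2G40620 ended (adjusted p = 0.13, 0.0657 and 0.111), and with the 62/60 arrays alone that of TAC1 did (adjusted p = 0.148). After scaling MED32 and AT2G40620 were not called either (adjusted p = 0.0991 and 0.0933), and TAC1 was not with a term for the Cy3 setting (adjusted p = 0.0504).

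For the other 23 at least 1 array decided the call. The 10 lower ones were THX, OCT5, NDB2, EULS3, IDD16, CML38, SAH7, OSB1, CDI and CYTC-2, with differences between -1.29 and -0.674. The 13 higher ones were ATU2AF35A, LUL4, PYRB, ALDH22A1, PIA1, ATO, SQN, MRL7-L, SOL1, UBC20, TSO1, DECOY and AT1G28060, with differences between 0.628 and 1.28. They include thioredoxin x (THX), an external NADH dehydrogenase of mitochondria (NDB2), a cytochrome c (CYTC-2), a calmodulin-like protein (CML38), the small subunit of the splicing factor U2AF (ATU2AF35A) and a ubiquitin-conjugating enzyme (UBC20). Their highest adjusted p without 1 array lay between 0.0538 and 0.168.

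A gene's value here is that of its probe. Of 229 loci with several tested probes, 21 had a called probe and 0 had more than 1, and in 14 of the 21 all probes differed in the same direction. Among 3383 pairs of neighbouring loci with tested probes, both were called in 8 (0.236%), 5 pairs in the same direction and 3 in opposite ones. Of all loci with a gene name 5.45% were called. Whether neighbours were called together more often than this share gives was not tested, so the pairs below are examples only. EXPA8 and its neighbour AT2G40620 (bZIP18) went in opposite directions, by -3.9 and 1.04. AFR, AT2G24550 and AT2G24560 are successive loci and were all lower, by -0.948, -1.08 and -2.04.

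Over the next step down the same stems, from 5-7 to 7-9 cm, 1 probe was called (0.00389%), and 1211 had an unadjusted p below 0.05, against 5129 from 3-5 to 5-7 cm. The 5-7 and 7-9 cm arrays have matched scanner settings, whereas every array of the upper step's 3-5 cm side has another, so the contrast between the steps and the setting cannot be told apart. Both steps use the 5-7 cm arrays, and the median SE was 0.245 in both. The median absolute difference over all tested probes was 0.257 for the upper step and 0.163 for the lower one. The called probe, which has no gene name here, read 0.70, 1, 0.71 and 0.74 at 5-7 cm and -1.27, -1.16, -0.90 and -1.19 at 7-9 cm.

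A test of the difference between the steps, added after the data were seen, called 58 probes (0.226%), 35 with a more negative and 23 with a more positive upper step. This difference, too, contains any effect of the scanner setting. For EXPA8 the steps were -3.90 and -0.32, and their difference was -3.58 ± 0.56 (adjusted p = 0.00514, and 0.0516 without 5-7 cm replicate 2). For scpl18 they were 1.65 and -0.46, a difference of 2.12 ± 0.38 (adjusted p = 0.0169, and at most 0.0994 without 5-7 cm replicate 2 or 3). XTH33 fell by 1.93 and then differed by -1.07 ± 0.24 between 5-7 and 7-9 cm (adjusted p = 0.352), so that a difference between its steps was not shown (adjusted p = 0.553). The count was 9 without 5-7 cm replicate 2, 152 without 5-7 cm replicate 1, 26 and 25 without 5-7 cm replicates 3 and 4, and 34 to 38 without each of the 3-5 cm arrays.

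Along the 10 cm stem single genes took different courses. EXPA8 was high at 0-3 cm (1.30 to 2.15) as well as at 3-5 cm, and low at 5-7 and 7-9 cm (-2.99 to -0.996 at 7-9 cm). TBL33 and ATPMEPCRD had their highest means at 3-5 cm (3.45 and 3.73), against 0.94 and 0.69 at 0-3 cm and 1.51 and 1.80 at 7-9 cm. BGLU45 was likewise highest at 3-5 cm, with 1.77 at 0-3 cm, and scattered from 1.74 to 5.25 at 7-9 cm. UGT72E1, scpl18 and CSLB03 had their lowest means at 3-5 cm and their highest at 5-7 cm. FER had means of 0.48, 1.28, 2.34 and 1.92 from the top section to the base. All these genes were chosen for a difference between 3-5 and 5-7 cm, which favours extremes in these sections. Nothing is therefore read from where a mean was highest or lowest. Between 5-7 and 7-9 cm none of these genes was called.

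**Figure D5:**
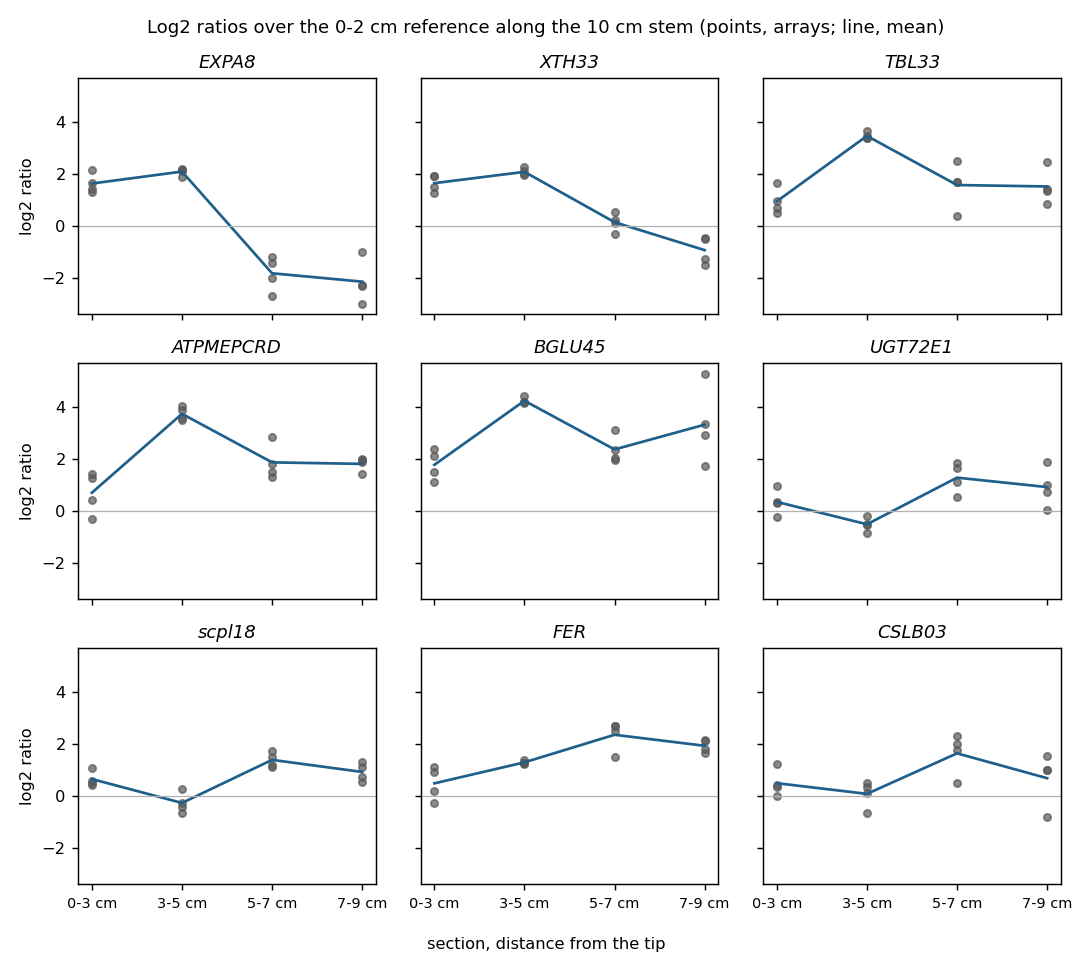
Log2 ratios over the reference in the 4 sections of the 10 cm stem for 9 genes; points are arrays and lines join the section means. EXPA8 and XTH33 are high in the upper sections, TBL33, ATPMEPCRD and BGLU45 are highest at 3-5 cm, and UGT72E1, scpl18, FER and CSLB03 are highest at 5-7 cm. The genes were chosen on the 3-5 and 5-7 cm arrays, which favours extremes in these sections.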

How the data were processed

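RNA of each stem section was hybridised against the common reference RNA on 2-colour arrays of 28800 spots and scanned on a ScanArray Express, per the labels. The authors deposited log ratios, used here as log2, centred near 0 (array medians -0.0237 to 0.038) and already turned to section over reference; how background was corrected and ratios normalized is not given in the sources used here, nor is the software. Spot intensities were not used here, so the distance from background is unknown and the number of arrays limits precision. Probes with values on at least 3 of 4 arrays in each of the 5 sections were tested (25720). limma 3.58.1 in R 4.3.3 (lmFit, eBayes) fitted a mean per section and a dye term to all 20 arrays (14 residual degrees of freedom), two-sided, with Benjamini-Hochberg adjustment over all tested probes and a threshold of 0.05. Of 8519 annotated probes 8338 have 1 gene in the platform annotation, 181 have several and were not named, and 8302 of the former matched the TAIR10.1 gene table, used for names and neighbours only.

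The compared arrays and the gene lists were chosen with earlier results of these data known. Lists of malectin-domain receptor kinases, pentatricopeptide repeat proteins and prenylated Rab acceptors, the test between steps and the search for recurring values were added after values were seen. Named are the 15 largest falls and rises among called annotated probes without overlap, every called list member, the member with the lowest p of each list without a call, and other probes of these genes. Lists of abscisic acid, aquaporin, cytosolic ribosomal protein and GDSL lipase genes had no member with a suitable name. Genes of these families may still have been tested under a locus name only, and a list count need not cover a whole family. The fit was tested on simulated data. Alternatives tried were the arrays in the fit, the dye term and labels, centring, scaling, array weights, block medians, the replicate number, the scanner setting (a term for Cy3 at 63, or the 5-7 cm arrays of 1 setting against all 3-5 cm arrays), filters, robust shrinkage, Bonferroni adjustment and leaving out each array.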

Additional observations from a re-analysis of the deposited data

Results flagged for a closer look

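Among 103 named probes, 205 groups of 4 arrays were checked for a sample far from the other 3 (Dixon's test at its 95% critical value for 4 samples), and 14 groups held one. Chance alone flags about 1 in 20 groups. The value of the array that stood apart is given with the range of the other 3.

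At 5-7 cm replicate 1 was the array that stood apart for 4 genes. It read -1.27 for AT2G24560 (others -2.32 to -2.20), -2.32 for CCR2 (-1.84 to -1.75), -0.29 for SQN, annotated as cyclophilin 40 (0.29 to 0.40), and 1.49 for FER (2.50 to 2.70). For AT1G72600 replicate 2 read 2.60, close above the others (2.45 to 2.46), and for AT1G50220 replicate 3 read 2.27 (1.40 to 1.53).

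At 3-5 cm replicate 2 stood apart for 4 genes. It read 1.59 for CML38, a calmodulin-like protein (others 1.35 to 1.38), -0.20 for EXPA15 (0.14 to 0.15), -0.26 for the aldehyde dehydrogenase gene ALDH22A1 (-0.82 to -0.74) and -1.57 for MRL7-L (-1.91 to -1.86). Replicate 3 read 1.18 for the sugar transporter gene SWEET17 (0.65 to 0.68), -1.83 for OPS at probe 21944 (-1.01 to -0.86) and -0.72 for ATO (-0.40 to -0.39). For NUP1 replicate 1 read -0.64 (-0.32 to -0.28).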

How the results depend on the processing

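Of 70 named probes checked, 54 were called, 21 of these stayed called under every alternative and 0 changed direction. The 70 leave out the 31 called genes named after values were seen and the other probes of named genes. Over all 85 called named probes, 50 stayed called whichever array was left out. Of the 85, 47 stayed called with the 62/60 arrays alone and 63 with the 63/60 arrays alone. The 1517 called probes became 769 with arrays centred and scaled, 835 with a term for the Cy3 scanner setting, 606 with the 62/60 arrays alone, 146 with Bonferroni adjustment, which is stricter by construction, and 980 to 1764 without 1 array; the other alternatives gave 1090 to 2116. The 818 called at least 2-fold became 515, 603, 533 and 146 in the same order and 672 to 1090 without 1 array. For the step to 7-9 cm the count of 1 became 0 after scaling and 0 to 3 without 1 array. For the difference between steps, 58 became 23 after scaling, 36 without the dye term and 9 to 152 without 1 array. The cause of the other moves was not tested. Probes higher at 5-7 cm were 41.2% of those called and 26% after Bonferroni adjustment (38 higher, 108 lower).

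Same-numbered arrays deviated together in 2 of 4 pairs (correlations -0.183, 0.29, 0.147 and -0.176). Replicates 2 and 3, the positive pairs, had the same dye in both sections, and replicates 1 and 4 did not. Dye was not removed from these deviations, so they cannot tell whether the numbers pair the arrays. With the replicate block 1464 probes were called, 1368 of them also without it, 835 at least 2-fold, and 1 and 59 in the other tests.

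Reversed were only uncalled genes. GUT2 (0.07) became -4.62e-05 with the 62/60 arrays alone, and -0.12 and -0.10 without 5-7 cm replicates 2 and 3 (range without 1 array -0.12 to 0.30). AT3G23840 (0.14) became -0.008439 with array weights and -0.0803 without 3-5 cm replicate 3 (range -0.0803 to 0.323). Signal over background is unknown, so weak probes could not be set apart.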
